A study of Mus musculus with 24 samples.

Results

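Of the 23420 entries of the count table, 9 genes make up the set described here: Rab17, Rab11fip4, Sorl1, Plekha6, Klhdc7a, Syne2, Ankrd23, Map3k9 and Gm20554. They were chosen because their RNA was lower in the mouse cochlea after noise, in an earlier look at the same libraries. The values that chose them were the changes with noise, so every change with noise below describes the choice and carries no test. All 9 were among the 16607 genes with enough counts to be tested. Tests were made on what the choice did not use, the differences between day and night and between the operations, each averaged equally over noise and sham exposure.

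The libraries came from whole cochleae of CBA/Sca mice aged 12 weeks, with 3 libraries in each of 8 groups. Mice had been adrenalectomised (ADX), which removes the main source of glucocorticoids, or sham-operated. Each kind was exposed for 1 h to noise of 6 to 12 kHz and 100 dB SPL, or sham-exposed (called unexposed below), either by day or at night. Noise began 3 h (ZT3, day) or 15 h (ZT15, night) after lights on. The series text places collection 2 h after the noise, but ZT11 and ZT23 stand in the sample labels, so the delay is uncertain. All groups had an operation, either ADX or sham. Nothing in the labels ties the 3 libraries of a group to separate animals, so p-values measure only the spread between these libraries.

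As background, Rab17 is a small GTPase of polarised epithelial cells that works in transcytosis and recycling to the apical membrane, and Rab11fip4 is an effector that links Rab11 to recycling endosomes. Sorl1 is a VPS10-domain receptor that sorts cargo such as the amyloid precursor protein between endosomes and the Golgi with the retromer complex. Plekha6 belongs to the PLEKHA family of pleckstrin-homology proteins, several of which sit at cell junctions, and Klhdc7a is a kelch-domain protein. Syne2 encodes nesprin-2, which anchors the nucleus to the cytoskeleton as part of the LINC complex, and the related nesprin-4 is needed for the position of the nucleus in outer hair cells. Ankrd23 is a muscle ankyrin repeat protein that binds titin. Map3k9 is mixed-lineage kinase 1, upstream of JNK, a stress kinase studied in noise damage to hair cells. Gm20554 is a long non-coding RNA gene beside Irx2, an Iroquois transcription factor gene.

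In GRCm38 (GENCODE vM21) the protein-coding members lie on 5 chromosomes. Rab17 spans chr1:90958133-90969661 on the minus strand, Ankrd23 chr1:36530188-36536883 on the minus strand and Plekha6 chr1:133164210-133303435 on the plus strand. Klhdc7a lies at chr4:139960220-139968026 on the minus strand, Sorl1 at chr9:41964720-42124297 on the minus strand and Rab11fip4 at chr11:79591212-79698023 on the plus strand. Syne2 lies at chr12:75818134-76110926 on the plus strand and Map3k9 at chr12:81721010-81781175 on the minus strand. The non-coding member, Gm20554, lies at chr13:72626213-72628564 on the minus strand.

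RefSeq promoters (GRCm38.p6) were found for 8 of the 9 genes, with 10 start sites in all, and Rab11fip4 is named only. The 250 bases before the start are printed for 3 genes. Rab17 and Klhdc7a had 2 of the 3 largest changes with noise, and Gm20554 had the largest difference between night and day. Each is written 5′ to 3′ on the gene's strand and ends at the base before the start site. The Rab17 window is chr1:90967668-90967917 on the minus strand, inside an intron of longer GENCODE transcripts. The Klhdc7a window is chr4:139968027-139968276 and the Gm20554 window chr13:72628565-72628814, both on the minus strand. Capitals mark a match to a motif that was searched, which is a glucocorticoid receptor hexamer in Rab17 and GC boxes in Gm20554.
Rab17: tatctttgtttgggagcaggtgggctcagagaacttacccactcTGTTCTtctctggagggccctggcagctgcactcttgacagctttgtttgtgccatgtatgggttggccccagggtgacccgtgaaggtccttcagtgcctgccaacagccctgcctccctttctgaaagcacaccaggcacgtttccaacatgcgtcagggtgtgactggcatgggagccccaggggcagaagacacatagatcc
Klhdc7a: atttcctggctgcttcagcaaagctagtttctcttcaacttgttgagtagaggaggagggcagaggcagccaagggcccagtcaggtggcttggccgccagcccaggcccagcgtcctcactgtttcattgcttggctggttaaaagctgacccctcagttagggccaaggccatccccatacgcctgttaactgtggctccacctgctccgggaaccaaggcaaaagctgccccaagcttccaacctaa
Gm20554: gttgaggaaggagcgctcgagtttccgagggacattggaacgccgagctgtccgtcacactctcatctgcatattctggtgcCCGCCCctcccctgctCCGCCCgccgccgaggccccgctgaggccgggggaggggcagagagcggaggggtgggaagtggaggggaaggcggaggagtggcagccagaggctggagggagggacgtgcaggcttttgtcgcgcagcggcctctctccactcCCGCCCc

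The motifs were searched on both strands of the 250 bases. The glucocorticoid receptor hexamer TGTTCT was found in 3 members, Rab17 (206 bases before the start), Syne2 (239 bases) and the second start of Sorl1 (248 bases), and in 16.1% of the 32851 promoters of the table. The GC box GGGCGG was found in 5 members (Gm20554, Map3k9, Syne2, Sorl1 and 1 start of Ankrd23) and in 32.7% of all promoters. Gm20554 held 3 of them, 168, 152 and 7 bases before the start. The E-box CACGTG, the core letters bound by clock and other basic helix-loop-helix factors, was found in Sorl1 alone, 19 bases before the start, and in 6.02% of all promoters. No member held the AP-1 motif TGANTCA (6.75% of all promoters), the CRE TGACGTCA (1.55%), the ROR element AGGTCA (14.0%) or the TATA box TATAAA (12.4%). Klhdc7a and Plekha6 held none of the motifs. These are letters in a window, and factor binding was not measured.

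Library totals ran from 18894996 to 36108962 counts. The glucocorticoid-induced gene Fkbp5 averaged 33.8 ± 2.87 CPM (counts scaled to a common library size, SD, n = 3) by day and 34.5 ± 8.50 at night in unexposed ADX libraries, against 70.8 ± 12.6 and 96.0 ± 14.8 in unexposed sham-operated ones. After day noise it did not separate the operations, at 61.7 ± 6.13 CPM in ADX and 62.5 ± 21.7 in sham-operated libraries, and it ran from 28.1 to 87.6 CPM in night noise ADX. Summed pituitary markers (Gh, Prl, Pomc) reached 9643 CPM in night noise ADX a, and summed cerebellar markers reached 93.5 CPM in library b of the unexposed day sham-operated group and 81.6 CPM in night noise sham-operated b. The members' changes with noise, the tested comparisons of the members and the counts of genes called were also computed without these 3 libraries. They are the 3 libraries with pituitary or cerebellar transcripts named below. Night noise ADX c, with summed pituitary markers of 133 CPM, is not among them and was left out only in the fits without single libraries. Markers of hair cells, supporting cells and stria vascularis were present in every library.

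The members match the falls with an adjusted p under 0.05 (edgeR's quasi-likelihood test) in the 2 sham-operated contrasts of noise with sham exposure. By day 5 members lay past that threshold, among 0.0361% of all genes lower and 0.211% higher. At night 6 members did, among 0.0482% lower and 0.668% higher. In the ADX libraries, whose part in the choice is not recorded, 3 members (Klhdc7a, Syne2 and Gm20554) lay past it by day, where 2.01% of genes were lower and 2.01% higher. Klhdc7a alone lay past it at night, with 0.0662% lower and 0.434% higher. The member nearest inside the threshold by day was Gm20554 (adjusted p = 0.0364, edgeR), and Slc31a2 and Igf1r (both 0.0534) and Slc16a6 (0.0560) lay just outside. At night Rab11fip4 lay just inside (0.0495), and Col19a1 (0.0547), Bod1l (0.0563) and 4930405A21Rik (0.0588) just outside. Sox8 by day and Grm7 and Clasp1 at night also lay inside and are not members. Sox8 differed by log2 -0.49 ± 0.10 (SE) with day noise in sham-operated libraries, and by -0.05, -0.87 and -0.52 in night sham-operated, day ADX and night ADX libraries.

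All 9 but Map3k9 had a log2 change below 0 in all 4 strata of period and operation, as did 10.6% of all genes. The median change of the 9 members was log2 -0.30 by day and -0.35 at night in sham-operated libraries, and -0.25 and -0.17 in ADX libraries. The medians over all genes were -0.01, 0.00, -0.01 and 0.00. The members match the falls in sham-operated libraries, so nothing is read from the smaller medians in ADX. All 3 noise libraries lay below all 3 unexposed ones for 6 members in day sham-operated, 9 in night sham-operated, 7 in day ADX and 5 in night ADX libraries. Among all genes the shares were 5.82%, 6.67%, 13.7% and 7.68%. Rab17, Ankrd23, Klhdc7a and Syne2 did so in all 4 strata. In bulk tissue, fewer cells of a type and less RNA per cell cannot be told apart.

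**Figure D1:**
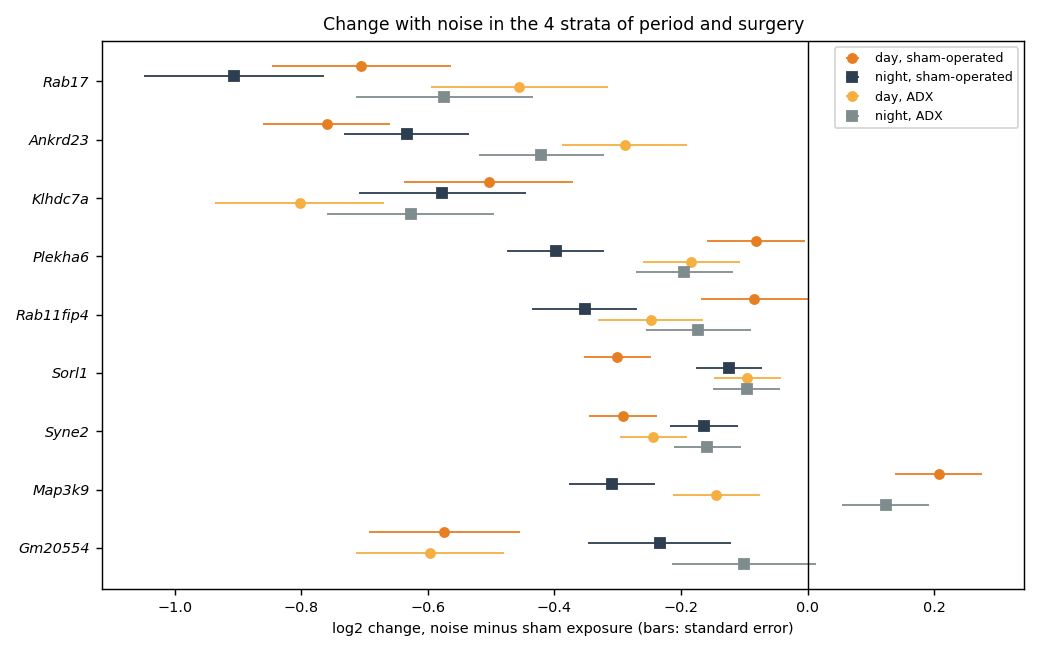
Log2 change with noise (noise minus sham exposure, horizontal axis) of the 9 genes in the 4 strata of period and operation, with bars for the standard error of the fit. Rab17, Ankrd23 and Klhdc7a lie farthest from 0, and Map3k9 lies above 0 in 2 strata; the genes were chosen on these values.

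Among the genes of vesicle traffic, Rab17 had the largest change. In sham-operated cochleae its levels by day were 14.9, 11.7 and 15.0 CPM without noise and 8.48, 7.32 and 9.66 CPM with noise. At night they were 12.4, 13.6 and 11.3 CPM without and 6.86, 5.32 and 7.67 CPM with noise. The groups did not overlap at either time, with log2 changes of -0.70 ± 0.14 (SE) and -0.91 ± 0.14. In ADX cochleae the levels were 11.4, 10.5 and 11.4 CPM without and 9.84, 7.79 and 6.67 CPM with noise by day, and 12.8, 12.7 and 12.6 CPM without and 8.72, 8.75 and 8.14 CPM with noise at night. The changes there were -0.46 and -0.57. All 12 unexposed libraries lay above all 12 noise libraries, and within each of these sets the ranges of groups next to each other in mean level overlapped. Groups farther apart did separate. ADX lay below sham-operated in the unexposed day groups and above it with night noise. In both cases the sham-operated libraries also chose the gene, so nothing is read from these separations. Night lay above day in unexposed ADX. The sum of 8 epithelial markers (Epcam, Cdh1, keratins and others) moved the other way: all 3 noise libraries lay above the unexposed ones in every stratum but day sham-operated, over a range of 393 to 550 CPM.

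Rab11fip4 and Sorl1, the other two traffic genes, changed less and less evenly. Rab11fip4 averaged 49.7 ± 4.28 CPM (SD, n = 3) without and 38.9 ± 3.83 with night noise in sham-operated libraries, a log2 change of -0.35 ± 0.08. By day the same pair of groups overlapped, at 44.8 ± 2.00 and 42.3 ± 2.06 CPM. Its groups did not overlap in day ADX (45.8 ± 3.62 against 38.6 ± 2.46 CPM) and overlapped in night ADX. Sorl1 was at 290, 288 and 314 CPM without and 237, 241 and 245 CPM with noise in day sham-operated libraries, and the groups were well apart. At night the levels were 276, 290 and 285 CPM without and 253, 265 and 263 CPM with noise, again without overlap. The log2 changes were -0.30 ± 0.05 and -0.12 ± 0.05. In both ADX strata the Sorl1 ranges overlapped, with changes of -0.10 each.

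Klhdc7a, the kelch-domain gene, was lower with noise in both operations. Its levels in day ADX libraries were 66.3, 63.3 and 60.8 CPM without and 40.9, 36.9 and 31.4 CPM with noise, and in night ADX 73.8, 80.8 and 74.3 CPM without and 50.4, 44.9 and 52.6 CPM with noise. Neither pair overlapped, and the log2 changes were -0.80 ± 0.13 and -0.63 ± 0.13. In sham-operated libraries the means were 67.5 ± 7.86 and 47.5 ± 4.28 CPM by day and 72.2 ± 9.49 and 48.4 ± 11 CPM at night, without overlap. The log2 changes there were -0.50 and -0.58, and whether the operations differ was not tested. Plekha6 averaged 235 ± 19.2 CPM without and 178 ± 12.1 with night noise in sham-operated libraries (log2 -0.40 ± 0.08). Its day sham-operated groups overlapped, with a change of -0.08 ± 0.08, and in ADX the groups were apart at changes of -0.18 and -0.20.

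Syne2, the nesprin-2 gene, was lower with noise in all 4 strata. Its levels in day sham-operated libraries were 189, 188 and 203 CPM without and 154, 158 and 162 CPM with noise, and at night 183, 200 and 192 CPM without and 166, 168 and 179 CPM with noise. In ADX the means were 189 ± 10.8 and 160 ± 9.45 CPM by day and 188 ± 3.99 and 169 ± 2.21 CPM at night. No stratum overlapped, and the log2 changes ran from -0.16 to -0.29. Among the 17 genes of all those tested whose groups were apart in this direction in all 4 strata, 4 are members. Low values with noise chose the members, so nothing is read from that count.

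Ankrd23 was lower with noise by more in sham-operated than in ADX libraries. In sham-operated cochleae its levels were 28.6, 26.0 and 32.5 CPM without and 15.2, 17.4 and 18.9 CPM with day noise, and 27.6, 29.4 and 25.2 CPM without and 17.2, 19.6 and 16.2 CPM with night noise. The groups were apart, at log2 changes of -0.76 ± 0.10 and -0.63 ± 0.10. In ADX the means were 23.7 ± 0.402 and 19.4 ± 0.719 CPM by day and 26.5 ± 2.99 and 19.8 ± 1.20 CPM at night, at changes of -0.29 and -0.42. All 12 unexposed libraries lay above all 12 noise libraries. Whether the operations differ in this was not tested, since the changes chose the gene. The sum of 12 skeletal muscle markers, 3 of them at 0 in some libraries and none at 0 in all, ran from 101 to 241 CPM over all libraries. It was lower with noise without overlap in day ADX only and overlapped in the other 3 strata. Over the 12 single markers the median log2 change was -0.76 by day and 0.56 at night in sham-operated libraries. In ADX it was -2.05 by day and -0.23 at night, and edgeR called none of them in any stratum. In GENCODE vM21, 78.2% of the Ankrd23 exons are shared with Gm42417 on the same strand, which has no entry in the count table.

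Map3k9 did not follow the other members. In day sham-operated libraries it was at 59.8, 58.7 and 57.6 CPM without and 69.1, 65.9 and 68.2 CPM with noise, so the noise libraries were the higher ones. At night the order was the opposite, at 67.2, 73.2 and 82.3 CPM without and 59.0, 58.8 and 62.0 CPM with noise. The log2 changes were 0.21 ± 0.07 and -0.31 ± 0.07. In ADX the groups overlapped at both times, with changes of -0.14 by day and 0.12 at night. Night noise in sham-operated libraries was the only contrast in which this kinase lay past the threshold.

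The non-coding member, Gm20554, had larger changes with noise by day than at night, a difference that was not tested. Its levels in day sham-operated libraries were 12.9, 10.7 and 12.8 CPM without and 8.72, 7.22 and 8.39 CPM with noise, and in day ADX 11.8, 9.72 and 12.9 CPM without and 7.85, 8.08 and 6.86 CPM with noise. Both pairs were apart, at log2 changes of -0.57 ± 0.12 and -0.60 ± 0.12. At night the levels were 13.5, 14.1 and 15.1 CPM without and 12.3, 11.1 and 12.9 CPM with noise in sham-operated libraries, and 15.4, 13 and 13.2 CPM without and 12.0, 12.8 and 14.1 CPM with noise in ADX. The night changes were -0.23 ± 0.11 and -0.10 ± 0.11, where the sham-operated groups were apart and the ADX groups overlapped.

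**Figure D2:**
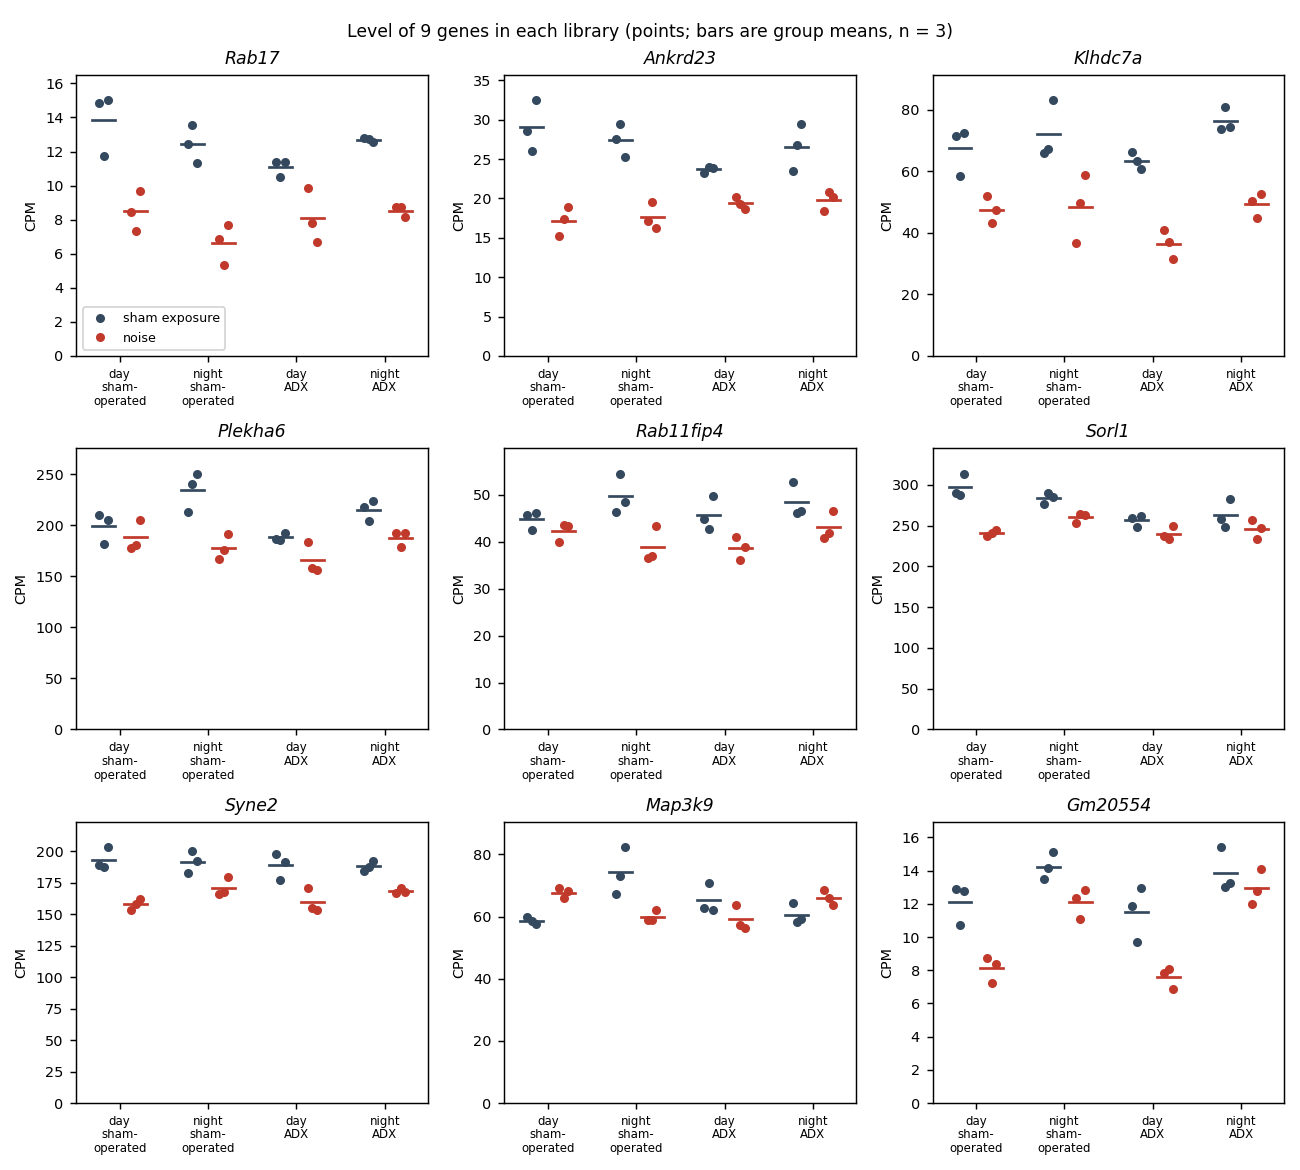
Level in CPM of each of the 9 genes in each library (points), by period and operation, with bars for group means of 3 libraries. The unexposed and noise libraries of Rab17 and Ankrd23 do not overlap anywhere, whereas Map3k9 is higher with noise in day sham-operated libraries (65.9 to 69.1 against 57.6 to 59.8 CPM) and lower at night.

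Genes related to the members were also tested with noise, in 7 lists of 88 genes, all tested. In sham-operated libraries edgeR called 1 higher and 0 lower by day and 2 higher and 0 lower at night. Among all genes the shares there were 0.211% and 0.0361% by day and 0.668% and 0.0482% at night. In ADX libraries it called 4 higher and 4 lower by day and 0 at night. The shares of all genes were 2.01% and 2.01% by day and 0.434% and 0.0662% at night. The medians of the lists together were log2 0.03, -0.03, -0.04 and 0.02, beside -0.01, 0.00, -0.01 and 0.00 for all genes. Among the genes listed with Sorl1, Sorcs3, another VPS10 receptor, fell in day ADX from 24.3 ± 2.24 to 15.5 ± 3.01 CPM (SD, n = 3; log2 -0.66 ± 0.15, edgeR adjusted p = 0.0155).

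In the JNK module listed with Map3k9, only the transcription factor gene Jun passed the test, of 13 genes. It rose from 59.6 ± 2.95 to 98.7 ± 16.5 CPM with night noise in sham-operated libraries (log2 0.73 ± 0.13, edgeR adjusted p = 0.00276) and from 52.8 ± 3.66 to 86.7 ± 15.3 CPM in day ADX (log2 0.72, edgeR adjusted p = 0.00298). In the LINC complex and lamina list of 12 genes, Lmna, which encodes lamin A and C, rose in day ADX from 131 ± 4.38 to 168 ± 8.59 CPM (edgeR adjusted p = 0.00552). Emd, the inner nuclear membrane protein emerin, rose there from 45.1 ± 1.06 to 54.4 ± 1.20 CPM (edgeR adjusted p = 0.0101), opposite to Syne2. Among 20 Rab11 and recycling genes, Rab11fip2 alone passed the test and fell in day ADX by log2 -0.47 ± 0.10 (edgeR adjusted p = 0.0126). Klhdc1 of the kelch list (log2 -0.41, edgeR adjusted p = 0.0309) and the tight junction scaffold Tjp1 of the Plekha6 list (log2 -0.37, edgeR adjusted p = 0.0323) also fell in day ADX. None of the 7 muscle ankyrin repeat and titin genes passed it in any stratum. The day ADX count of 8 was 21 without day noise ADX a and ran from 3 to 5 without day noise ADX b or c or day sham exposure ADX a or c.

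The summed marker levels moved with noise as well, and their part in the members' changes was not tested. Of the 16 marker lists, 3 were above and 0 below the unexposed range with noise in day sham-operated libraries, 3 above and 1 below in night sham-operated, 3 above and 4 below in day ADX, and 2 above and 2 below in night ADX. The 4 lists below in day ADX were hair cells, supporting cells, glia and myelin, and skeletal muscle.

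For the comparisons that the choice did not use, Gm20554 had the clearest result. It was higher at night than by day, at 13.3 ± 1.25 against 9.83 ± 2.30 CPM (SD, n = 12 each), a log2 difference of 0.46 ± 0.06 (95% interval 0.34 to 0.58, edgeR adjusted p = 4.94e-05). All 3 night libraries lay above all 3 day libraries in each of the 4 strata of exposure and operation, which 0.271% of all genes did. In the noise strata this uses the libraries whose low day values chose the gene, so nothing is read from that share. The log2 difference was 0.57 with noise and 0.24 without it in sham-operated libraries, and 0.77 and 0.28 in ADX. It passed the test within sham-operated libraries (log2 0.40, edgeR adjusted p = 0.00792) and within ADX libraries (log2 0.52, edgeR adjusted p = 0.00498), and under every alternative tried. The test of the operations against each other gave log2 0.12 with a 95% interval of -0.13 to 0.36 (edgeR adjusted p = 0.897).

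Irx2, a neighbour chosen after its values were seen, lies at chr13:72628820-72634198 on the plus strand, head to head with Gm20554 across a gap of 255 bases, nearly all of it the promoter window printed above. It averaged 32.0 ± 1.91 CPM at night and 28.8 ± 3.10 by day (SD, n = 12 each), a log2 difference of 0.16 ± 0.04 (edgeR adjusted p = 0.0360). The ranges overlapped, from 29.8 to 35.0 CPM at night and from 23.3 to 33.6 CPM by day. Its change with noise passed the test in none of the 4 strata. Within strata, all 3 night libraries lay above all 3 day libraries in noise ADX (31.1 to 32.5 against 23.3 to 28.3 CPM), and the other 3 strata overlapped. Over all libraries Gm20554 overlapped as well, from 11.1 to 15.4 CPM at night and from 6.86 to 12.9 CPM by day.

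**Figure D3:**
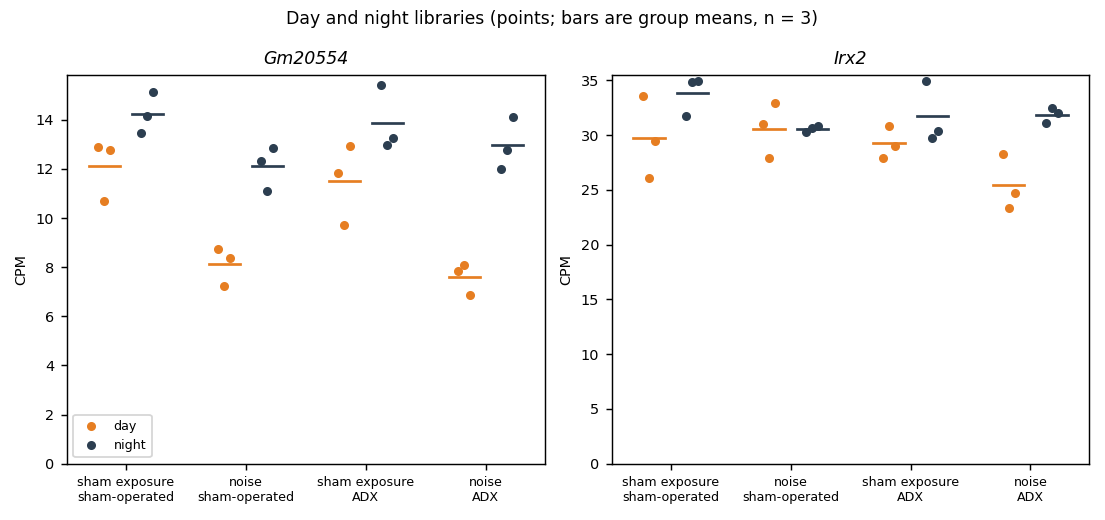
Level in CPM of Gm20554 (left) and its neighbour Irx2 (right) in day and night libraries (points) of each exposure and operation, with bars for means of 3. For Gm20554 the night points lie above the day points in all 4 pairs of groups, and for Irx2 they do so in the noise ADX pair alone.

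Plekha6 also passed the test between night and day, at 204 ± 25.8 against 185 ± 17.1 CPM (SD, n = 12 each), a log2 difference of 0.13 ± 0.04 (edgeR adjusted p = 0.0423). The night libraries lay above the day libraries without noise in both operations, and the groups overlapped with noise, where the sham-operated difference was log2 -0.08. In the sham-operated groups this uses the unexposed night libraries whose high values chose the gene, so nothing is read from that separation. The call was lost in 17 of the 24 fits that left out 1 library, with edgeR adjusted p up to 0.0918, and without the 3 libraries with pituitary or cerebellar transcripts (0.139). It held without night noise ADX b, night sham exposure ADX b, day noise sham-operated c, day noise ADX a, or replicate a of the day unexposed, night unexposed or night noise sham-operated groups. In all, 2 members were called higher at night and 0 lower, where 3.76% of all genes were higher and 2.25% lower. At an unadjusted p under 0.05 there were 3 members and 3539 of all 16607 genes. The member added was Klhdc7a, at 61.6 ± 14.9 against 53.7 ± 13.8 CPM (log2 0.21, 95% interval 0.07 to 0.35, edgeR adjusted p = 0.0673). Klhdc7a passed the threshold without day noise ADX a (0.0446) or night noise sham-operated a (0.0108). The members' median difference was log2 0.05, beside 0.00 for all genes.

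The difference between night and day of Rab17 was log2 -0.06 with a 95% interval of -0.21 to 0.09. The intervals of Ankrd23, Rab11fip4, Sorl1, Syne2 and Map3k9 also held 0 and reached no higher than 0.16. For Map3k9 this averages strata that went opposite ways. Its night minus day difference in sham-operated libraries was log2 0.33 without and -0.18 with noise. In ADX it was -0.11 without and 0.16 with noise. The sham-operated night libraries chose the gene, so nothing is read from the differences in sham-operated libraries. Within sham-operated libraries Gm20554 was the only member called, beside 3.43% of all genes in either direction, and likewise within ADX libraries, beside 0.566%.

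Adrenalectomy was tested in the same way, and Sorl1 alone passed. It was lower in ADX than in sham-operated libraries, at 251 ± 13.8 against 271 ± 23.6 CPM (SD, n = 12 each), a log2 difference of -0.10 ± 0.03 (95% interval -0.16 to -0.05, edgeR adjusted p = 0.0336). All 3 ADX libraries lay below all 3 sham-operated ones in the unexposed day groups, at log2 -0.21, and the groups overlapped in the other 3 strata, at -0.01, -0.08 and -0.11. The unexposed day groups include the sham-operated libraries whose high values chose the gene, so nothing is read from that separation. The call was lost in 15 of the 24 fits that left out 1 library, with edgeR adjusted p up to 0.0710. It held without replicate a or c of day noise ADX, c of day or night unexposed ADX, a of night noise ADX, a or b of day unexposed sham-operated, or a of night noise or night unexposed sham-operated. Among all genes 1.52% were lower in ADX and 1.68% higher.

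By day alone edgeR called no member between the operations (0.0301% of all genes were called), and at night none (2.73%). At an unadjusted p under 0.05 there were 3 members and 1254 of all 16607 genes by day, and 1 member and 2803 genes at night. The interaction of period and operation called no member and 0% of all genes, with 2 members and 1108 genes at an unadjusted p under 0.05. DESeq2 and limma voom also called no member in these 3 comparisons. The largest interaction among the members was that of Rab17, at log2 0.39 with a 95% interval of 0.10 to 0.69 (edgeR adjusted p = 0.632). Its night minus day difference was -0.26 in sham-operated and 0.14 in ADX libraries.

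**Figure D4:**
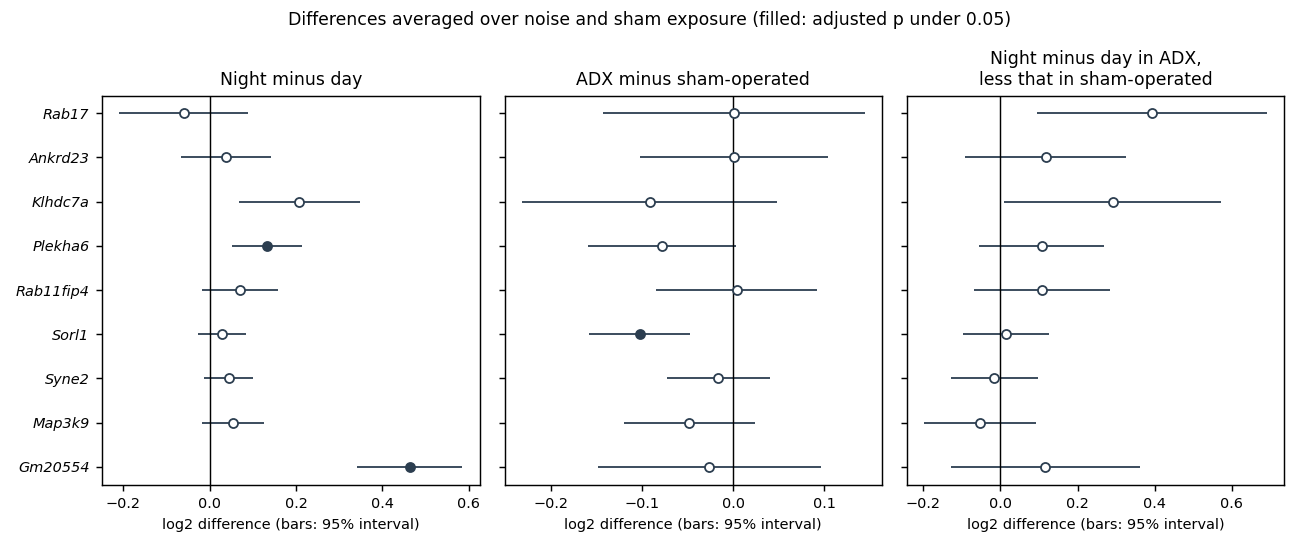
Log2 differences of the 9 genes averaged over noise and sham exposure, between night and day (left), ADX and sham-operated (middle) and the interaction of both (right), with 95% intervals. Filled points have an edgeR adjusted p under 0.05, which are Gm20554 and Plekha6 for night and day and Sorl1 for the operation.

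Per kb of exon, averaged over all libraries, Sorl1 was the most abundant at 23 CPM per kb, followed by Plekha6 (15.5) and Map3k9 (10.8). The other 6 lay between 4.92 (Gm20554) and 8.37 CPM per kb (Ankrd23). The median span was 60166 bases, beside 23498 for the tested genes with a position, and 5 of the 9 lay above that value. The median exon length was 7451 bases, beside 4232.5, with 6 of 9 above. Antisense genes overlap 4.95% of the exons of Plekha6 (Gm19461) and 1.63% of those of Sorl1 (Gm16214), and reads of such partners cannot be told apart here, since the strand setting of the counting is not given in the sources used here.

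The members other than Map3k9 varied together over the 24 libraries, which share the groups that chose them. Over the 36 pairs of members, Pearson's r of log2 CPM ran from -0.01 to 0.85 with a median of 0.66. Within groups, after subtraction of each group's mean, it ran from -0.34 to 0.64 with a median of 0.35. Over all libraries Map3k9 had r from -0.01 with Ankrd23 to 0.55 with Plekha6. Pairs of genes outside the set were not compared. The genes most like the mean of the members, of 15148 compared over the 24 libraries, were Nf2 (r = 0.905), Kif13b (0.900), Stxbp4 (0.897), Sipa1l1 (0.887) and Ksr1 (0.886), and within groups these had r of 0.70 to 0.82. For single members the nearest gene was Tmem79 for Rab17 (0.871), Trp53bp2 for Klhdc7a (0.908) and Syne2 (0.866), Ksr1 for Plekha6 (0.922), Pde4dip for Rab11fip4 (0.851) and Rab11fip1, a recycling gene, for Sorl1 (0.863). It was Fam219a for Map3k9 (0.878), Bahcc1 for Gm20554 (0.892) and Gal3st3 for Ankrd23 (0.777), which fell to r = 0.15 within groups.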

How the data were processed

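RNA was measured by stranded poly-A RNA-seq of mouse cochlea, from 300 ng of RNA a library, as 50-base single reads. The authors deposited raw counts per gene symbol, made with TopHat2 2.0.11 and HTSeq 0.6p1 on mm10 per the submitters' processing notes. The annotation and the strand setting of the counting are not given in the sources used here. The 27 entries whose names a spreadsheet had turned into dates held 0.214% of counts.

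The analysis used edgeR 4.0.16 (R 4.3.3). filterByExpr on the 8 groups left 16607 genes, and TMM factors ran from 0.974 to 1.02. All 24 libraries entered 1 robust quasi-likelihood model that estimates each group's mean (common biological coefficient of variation 0.0991), with 2-sided F-tests adjusted by Benjamini-Hochberg over all genes (threshold 0.05). The fit was checked on simulated counts. CPM values use the TMM factors, and log2 values per library a prior count of 2. Pairs of libraries within a group differed by a chi-square of 6.10 to 41.4 per gene, so none repeated another.

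The members, the gene lists and the marker lists were chosen with earlier results of these data known. The 7 tested comparisons average noise and sham exposure with equal weight and so do not use the differences that chose the members, though they share the fit's estimate of the spread. The genes named are all members, the listed related genes past the threshold (1 of them is counted and not reported here), the falls past or nearest to it that are not members, and the genes with the highest correlation with the members. Alternatives were RLE size factors, DESeq2 1.42.0, limma 3.58.1 voom, no filter on low counts, leaving out single libraries or the 3 with pituitary or cerebellar transcripts, a replicate block, and fits of only the 2 groups compared.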

Additional observations from a re-analysis of the deposited data

Results flagged for a closer look

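Map3k9 moved in opposite directions with noise by day and at night in sham-operated libraries. All 3 noise libraries lay above all 3 unexposed ones by day (65.9 to 69.1 against 57.6 to 59.8 CPM), and all 3 lay below at night (58.8 to 62.0 against 67.2 to 82.3 CPM). The night change minus the day change was -0.52 on the log2 scale. The difference was not tested, because changes with noise chose the genes described.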

How the results depend on the processing

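The 36 log2 changes with noise of the members kept their sign under all 468 alternative values. They also moved by less than the spread between libraries. Leaving out 1 of 3 libraries can hardly move a mean that far, so nothing is read from that limit for those fits. Small changes still moved by over 1.5 times when 1 library was left out. Gm20554 in night ADX (-0.10) was -0.01 without replicate a of the unexposed group and -0.17 without noise c, and was also smaller without noise a. Plekha6 in day sham-operated (-0.08) ran from -0.15 without noise c to -0.04 without unexposed a, and also moved without noise a, noise b or unexposed b. Sorl1 in night ADX (-0.10) was -0.04 without unexposed c and also smaller without noise b. Rab11fip4 was -0.04 in day sham-operated without noise a (main -0.08) and -0.10 in night ADX without unexposed a (main -0.17). Map3k9 in day ADX (-0.14) was -0.08 without unexposed b. Of 1458 alternative values for the members in the 7 tested comparisons, 1417 stayed on the same side of the threshold. The night and day call of Gm20554 held in all 30 alternatives (log2 0.44 to 0.49, adjusted p at most 0.000260 with edgeR, DESeq2 and limma voom). The number of members called between night and day was 1 without the 3 libraries with pituitary or cerebellar transcripts. It was 2 within sham-operated libraries by limma voom, which added Rab17 (adjusted p = 0.0482), and 2 within ADX libraries by DESeq2, which added Klhdc7a (0.0237). Klhdc7a also passed over both operations by DESeq2 (0.0318) and limma voom (0.0297). Of the related genes, DESeq2 called 2 in day sham-operated and 3 in night ADX libraries, and a fit of only the 2 groups called 1 in night sham-operated, 5 in day ADX and 1 in night ADX libraries. The cause was not tested.

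Without single libraries the number of members called ran from 1 to 3 between night and day, from 0 to 1 between the operations and from 1 to 3 for night and day within ADX, where day noise ADX a decided the highest. The related genes ran from 1 to 2 in day sham-operated, from 3 to 21 in day ADX and from 0 to 1 in night ADX libraries. Over all genes, the highest and lowest counts of calls under any alternative were 898 and 304 for the operation (main 532), 22 and 0 for the interaction (0), 949 and 262 for night and day within sham-operated (569), 288 and 21 within ADX (94), 29 and 0 for the operation by day (5) and 1080 and 108 at night (454). For noise they were 123 and 23 in day sham-operated (41), 254 and 78 in night sham-operated (119), 2254 and 144 in day ADX (667) and 182 and 37 in night ADX (83), so the shares of all genes given with each comparison move with the setting.

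The libraries of different groups share only a letter. Same-letter libraries of noise and unexposed groups had correlations of their deviations from -0.13 to 0.41 (median 0.05, 5 of 12 pairs over 0.1). Over all pairs of groups 20 of 84 were over 0.1. The letters were not taken to pair the libraries, and pairing within a stratum was not tested. With the letter as a replicate block the counts of members called were 2 between night and day and 1 between the operations, and the related genes called were 1, 2, 8 and 0, all as without it. That block fits an effect of each letter common to all groups. With 3 libraries a group, the least precise changes with noise were those of Rab17 (SE 0.14, from 122 counts a library) and Klhdc7a (SE 0.13). Gm20554 followed, at an SE of 0.11 to 0.12.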
